A study of Mus musculus with 30 samples.

Results

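Collagen genes were followed across 30 RNA sequencing libraries of the mouse nucleus accumbens, a region of the ventral striatum that takes part in reward and pain. A gene was included when its symbol has the form of a collagen chain name (Col, a type number, a, a chain number) and when it had at least 10 counts summed over the libraries. All 44 genes with such a symbol met the count minimum, out of 55401 gene IDs in the count table. They fell into 11 chains of fibrillar collagens, 6 chains of basement membrane collagen (type IV) and 27 chains of other collagens. The others were 9 FACIT chains (collagens that sit on fibrils and have interrupted triple helices), 6 chains of the beaded filament collagen VI, 4 transmembrane collagens, 3 network chains, 2 multiplexins, 1 anchoring fibril collagen and 2 further types.

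All mice were male C57BL/6J, and each library came from the bilateral punches of 1 animal. They had tibial SNI (spared nerve injury, a model of neuropathic pain) or sham surgery 4 weeks before a 3-week course of intraperitoneal injections 2 times a day. Among SNI mice, 4 received desipramine at 15 mg/kg, 6 received tianeptine at 30 mg/kg and 5 received saline. Among sham mice, 4 received desipramine, 6 tianeptine and 5 saline, each at the same dose, and sham saline is the study's control. Of the drugs, desipramine inhibits the reuptake of noradrenaline (a tricyclic), while tianeptine, chemically also a tricyclic, acts as an agonist at mu-opioid receptors. Total counts ran from 24.5 to 37.7 M in the 24 libraries numbered as replicates 1 to 4, and from 98 to 120.7 M in the 6 libraries of replicates 5 and 6, none of which had desipramine.

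Collagens are secreted or membrane-bound proteins of 3 chains wound into a triple helix. Fibrillar collagens such as types I and III give connective tissue its tensile strength, and in the brain they are made mainly by fibroblasts of the meninges and of large vessels. Type IV collagen forms the sheet of the basement membrane around every brain vessel, and FACIT, multiplexin and transmembrane collagens link cells, fibrils and basement membranes, some of them made by neurons.

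Levels are given as CPM, read counts scaled to a common library total. Several libraries stood apart before any comparison. Markers of medium spiny neurons (10 genes), the main cell type of the accumbens, summed to 831 CPM in replicate 2 and 2954 CPM in replicate 3 of SNI desipramine, against 3254 to 6904 CPM in the other 28 libraries. Markers of septal and hypothalamic neurons were highest in the same libraries. Markers of fibroblasts and meninges (16 genes, no collagen among them) summed to 645 CPM in sham saline replicate 3, against 57.9 to 223 CPM in the other 29 libraries. Markers of cortical excitatory neurons ran from 72.7 to 1262 CPM over the libraries, with a highest value of 275 CPM in SNI desipramine and 528.5 CPM or more in each other group. Choroid plexus markers summed to 715 CPM in sham tianeptine replicate 6, against 24.3 to 88.3 CPM elsewhere. Values without these libraries are given beside many of the results. In bulk tissue, fewer cells of a type and less RNA per cell cannot be told apart.

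Per length of exon, 1 gene held about as much as all other collagens put together. Col6a1, a chain of the beaded filaments of collagen VI, had a median of 68.6 CPM per kb of exon, 48.25% of the sum of the medians of the 44 genes. Without division by length its median was 301 CPM, and the 44 genes summed to 747 to 1103 CPM per library. Exon length here is that of all annotated exons of a gene, overlaps merged, and levels per kb depend on that choice. Next came Col4a2, a chain of vessel basement membranes, at 10.3 CPM per kb, Col25a1, a transmembrane collagen of neurons, at 6.65, the fibrillar chain Col11a2 at 6.08, the FACIT chain Col9a3 at 5.78, Col4a1 at 5.76 and the fibrillar chain Col11a1 at 5.08. Those ranges over the 30 libraries overlapped from Col4a2 down to Col11a1, so the order among these is not firm. Col6a1 was lowest in SNI desipramine replicate 2, at 9.87 CPM per kb, where Col4a2 was highest, at 15.6.

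The partners of a trimer were not equally abundant. Col6a2 had a median of 3.13 CPM per kb and Col6a3 0.384, and both assemble with Col6a1. Col1a1 and Col1a2, the chains of type I collagen, were close to each other at 0.844 and 0.855 CPM per kb, while Col3a1, the single chain of type III, had 0.172. That closeness rests on exon lengths of 6.563 kb for Col1a1 and 12.426 kb for Col1a2. Without division by length their medians were 5.54 and 10.62 CPM. Among type IV chains, Col4a5 had 0.692 CPM per kb, Col4a6 0.215, Col4a4 0.113 and Col4a3 0.0538. Col10a1, a growth plate cartilage chain, was lowest at 0.0181 CPM per kb with 108 counts over all libraries, and it was the single collagen gene below the abundance filter of the test.

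**Figure D1:**
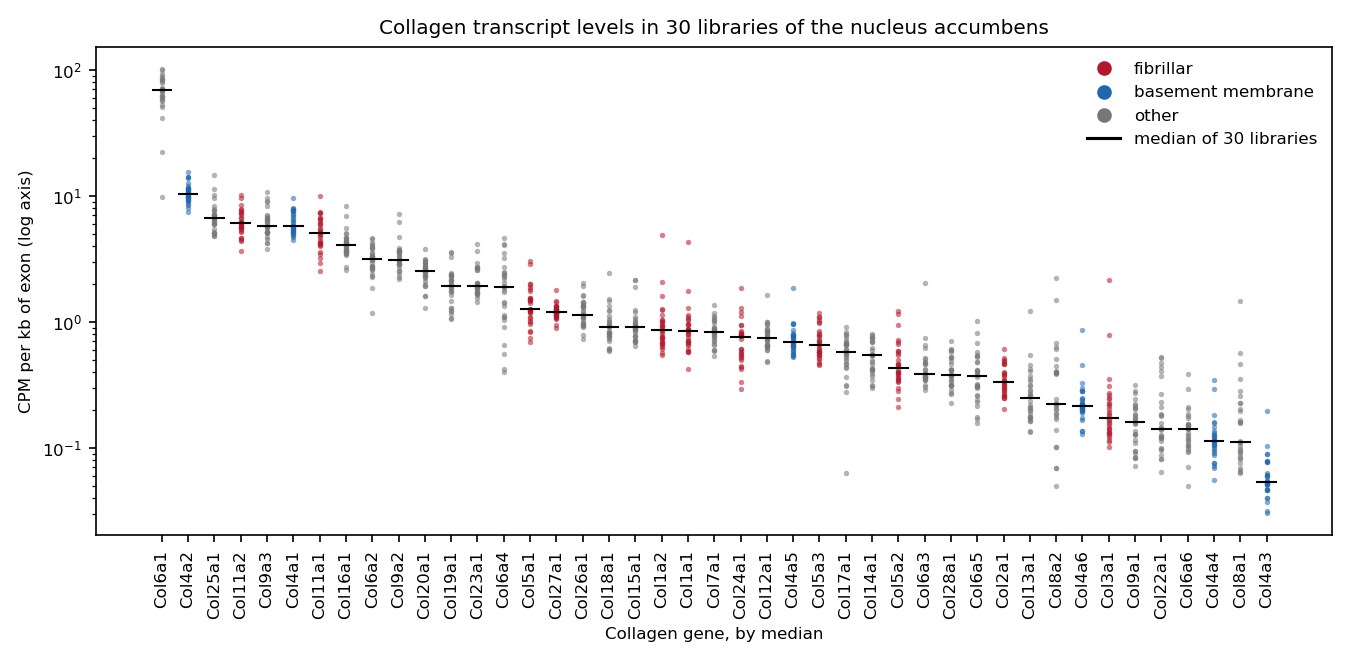
Level of 43 collagen genes in CPM per kb of exon on a log axis, 1 point per library (n = 30) and a black bar at the median, coloured by class. Col6a1 lies far above the rest with a median of 68.6 CPM per kb, and Col3a1, Col8a1 and Col8a2 have single libraries far above their medians; Col10a1 is left out because it is 0 in some libraries.

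The type IV genes lie in head-to-head pairs, and the pairs differ in how close their starts are. Col4a1 (8:11198423-11312826, minus strand, mm10) and Col4a2 (8:11312805-11449287, plus strand) share 22 bases at their 5′ ends. Col4a4 and Col4a3 on chromosome 1 are separated by 71 bases, and Col4a6 and Col4a5 on chromosome X by 1308 bases. The stretches between or before these starts are shown because the partners' levels are compared next. Each is read 5′ to 3′ from the RefSeq promoter table of build GRCm38.p6, in lower case, with capitals for GGGCGG (a GC box), CCAAT or TATAAA on either strand.
Col4a1 and Col4a2, shared 5′ ends, plus strand, chr8:11312805-11312826: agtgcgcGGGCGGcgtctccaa
Col4a4 and Col4a3, whole gap, plus strand, chr1:82586850-82586920: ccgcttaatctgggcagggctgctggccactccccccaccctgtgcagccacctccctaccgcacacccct
Col4a6, 250 bases upstream, minus strand, chrX:141474077-141474326: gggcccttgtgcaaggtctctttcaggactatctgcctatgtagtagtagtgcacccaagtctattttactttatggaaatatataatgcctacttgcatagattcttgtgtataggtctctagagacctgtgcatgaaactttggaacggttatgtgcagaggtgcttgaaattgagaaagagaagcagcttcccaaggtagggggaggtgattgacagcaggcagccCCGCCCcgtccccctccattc
The shared Col4a1 and Col4a2 stretch is 72.7% G and C, lies in the first exons of both genes and holds 1 GC box. The Col4a4 and Col4a3 gap is 69.0% G and C and holds none of the 3 motifs, and the stretch before Col4a6 is 47.6% G and C with 1 GC box. Over the 250 bases upstream, GGGCGG occurs in 22 of the 38 promoters of the 35 collagen genes that matched the table (57.9%), against 32.7% of all 32851 RefSeq promoters. TATAAA occurs in 13.2% of collagen promoters against 12.4% of all, and CCAAT in 34.2% of collagen promoters against 33.8% of all. A match describes these letters and is not a bound site.

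Col4a1 and Col4a2 kept step across libraries. On log2 CPM over the 30 libraries their Pearson r was 0.85 and Spearman rho 0.87 (permutation test, adjusted p = 6.5e-05 and 0.00013 over 13 chain pairs). It was 0.83 without the 2 libraries farthest from the median of Col4a1, 0.86 in the first library set and 0.87 in the second. The median r over all 946 pairs of collagen genes was 0.15, with quartiles of -0.1 and 0.36. The points share library, depth and dissection.

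The other head-to-head pairs moved together less evenly. Col4a5 and Col4a6 had r = 0.74 and rho = 0.52 (permutation test, adjusted p = 0.00042 and 0.0094), but r = 0.36 without sham saline replicate 3 and sham desipramine replicate 3. Col4a3 and Col4a4 had r = 0.58 and rho = 0.34 (permutation test, adjusted p = 0.003 and 0.15), and r = 0.18 without SNI desipramine replicate 2 and sham tianeptine replicate 6, so that relation rests on those libraries.

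Chains of 1 collagen type that are not head-to-head neighbours gave a mixed picture. Col6a1 and Col6a2 lie near each other on the same strand of chromosome 10, and Col1a1 and Col1a2 on different chromosomes. Col1a1 and Col1a2 had r = 0.84 and rho = 0.55 (permutation test, adjusted p = 6.5e-05 and 0.0075), and r = 0.5 without sham desipramine replicate 3 and sham saline replicate 3. Col6a1 and Col6a2 had r = 0.79 and rho = 0.55 (permutation test, adjusted p = 0.00013 and 0.0075), and r = 0.44 without SNI desipramine replicates 2 and 3. Col8a1 and Col8a2, the chains of the short-chain collagen VIII of vessels and corneal membranes, had r = 0.63 and rho = 0.56 (permutation test, adjusted p = 0.00081 and 0.0075). They had r = 0.54 without SNI desipramine replicate 2 and sham tianeptine replicate 6, the 2 libraries farthest from the median of Col8a1. Sham saline replicate 3, with 3.601 CPM of Col8a1 and 6.675 of Col8a2, stayed in. For Col5a1 with Col5a2 (r = -0.05), Col11a1 with Col11a2 (r = 0.3), Col6a3 with Col6a1 (r = -0.35) or Col6a2 (r = -0.07), and the 3 pairs among Col9a1, Col9a2 and Col9a3 (r = -0.13 to 0.19), the permutation test did not pass.

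The chains whose levels turned on single libraries differ in the letters before their starts. The 250 bases upstream of Col3a1 and of both type VIII chains are shown because these 3 genes had the highest peaks over their medians.
Col3a1, plus strand, chr1:45311288-45311537: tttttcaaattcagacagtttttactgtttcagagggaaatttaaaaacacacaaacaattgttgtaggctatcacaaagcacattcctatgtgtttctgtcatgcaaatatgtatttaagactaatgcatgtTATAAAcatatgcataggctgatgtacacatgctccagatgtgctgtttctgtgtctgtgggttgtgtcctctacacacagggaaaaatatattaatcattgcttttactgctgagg
Col8a1, minus strand, chr16:57754738-57754987: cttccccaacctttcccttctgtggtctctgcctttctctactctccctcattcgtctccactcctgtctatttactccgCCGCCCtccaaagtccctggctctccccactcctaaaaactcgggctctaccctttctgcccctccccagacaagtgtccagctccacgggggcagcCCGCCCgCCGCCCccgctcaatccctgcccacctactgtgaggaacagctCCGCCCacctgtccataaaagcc
Col8a2, plus strand, chr4:126286544-126286793: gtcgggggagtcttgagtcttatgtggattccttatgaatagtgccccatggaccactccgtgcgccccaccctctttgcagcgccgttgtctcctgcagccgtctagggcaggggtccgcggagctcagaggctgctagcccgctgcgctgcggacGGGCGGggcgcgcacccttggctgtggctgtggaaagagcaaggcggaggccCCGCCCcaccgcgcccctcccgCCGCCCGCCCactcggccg
The Col3a1 stretch is 35.2% G and C with 1 TATAAA and no GC box. The Col8a1 stretch is 60.8% and the Col8a2 stretch 70.0% G and C, and each holds 4 matches to the GC box, some of them overlapping in Col8a2.

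A few libraries held the highest level of many collagen genes. Sham saline replicate 3 was the highest of all 30 libraries for 12 genes: the fibrillar Col1a1, Col1a2, Col3a1, Col5a1 and Col5a2, the basement membrane chains Col4a5 and Col4a6, and Col6a2, Col9a2, Col12a1, Col13a1 and Col18a1. Sham tianeptine replicate 1 was highest for 5 genes (Col6a3, Col9a3, Col15a1, Col23a1 and Col25a1), and SNI desipramine replicate 2 for 5 (Col2a1, Col4a2, Col5a3, Col16a1 and Col24a1). Sham tianeptine replicate 6 was highest for Col4a3, Col4a4, Col8a1 and Col8a2. SNI desipramine replicate 2 was also the lowest library for Col6a1, Col6a2, Col17a1 and Col20a1, and SNI tianeptine replicate 2 was lowest for 6 genes. For 1 of these 6, Col10a1, it tied at 0 CPM with other libraries.

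**Figure D2:**
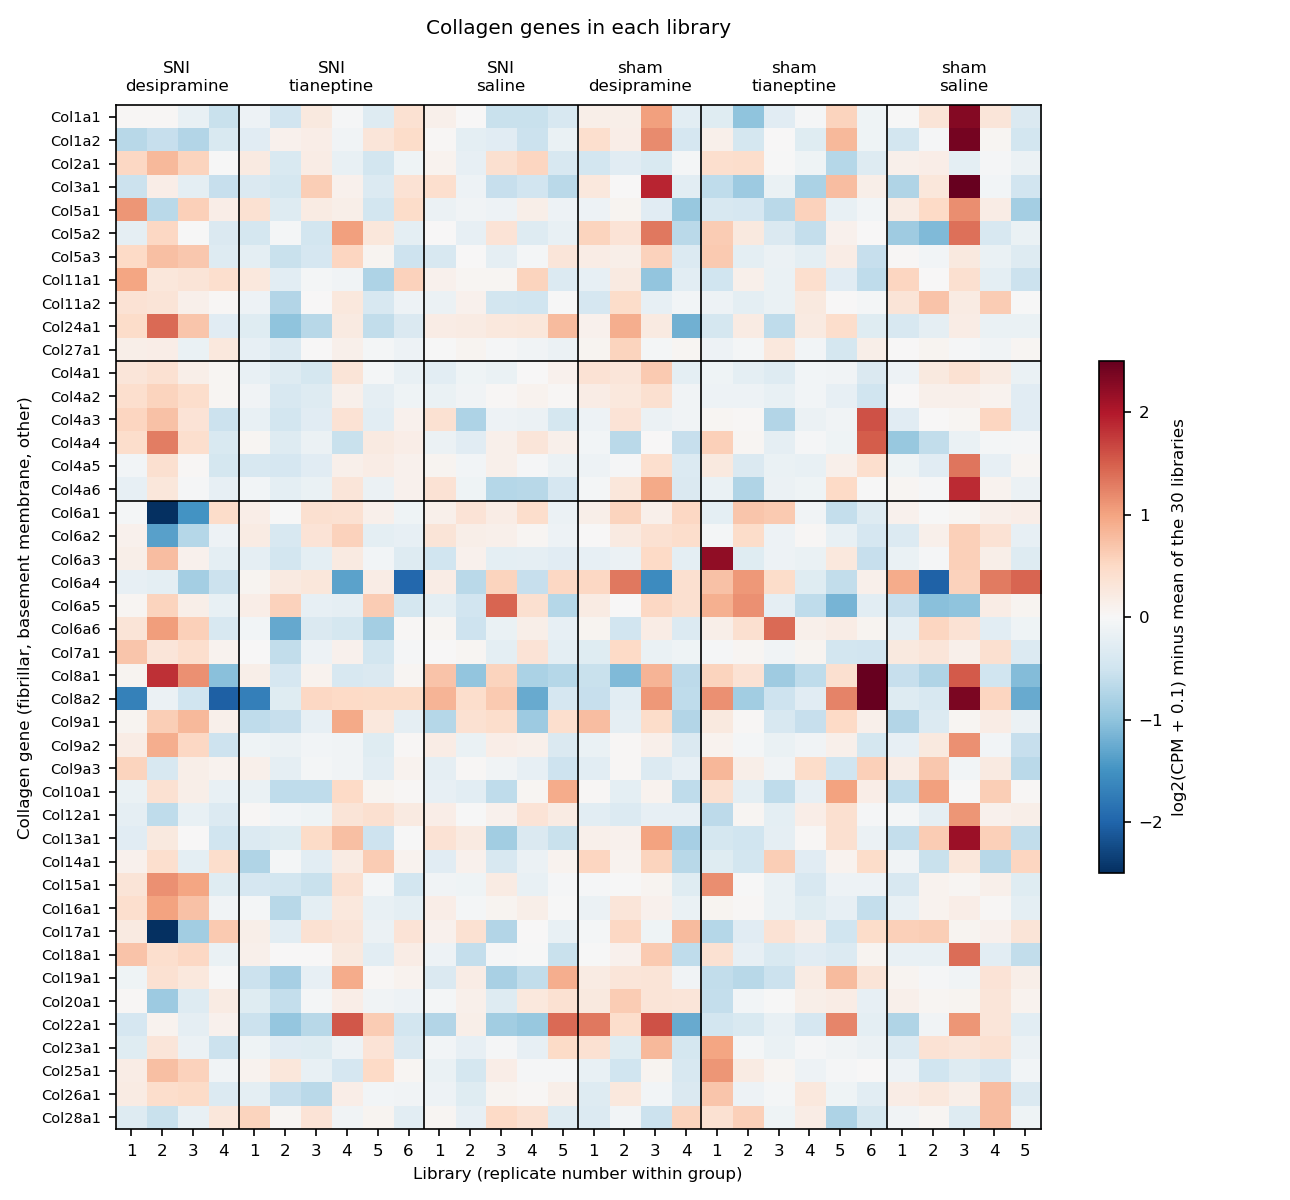
Each row is a collagen gene and each column a library, coloured by log2(CPM + 0.1) minus the gene's mean over the 30 libraries; lines separate the 6 groups and the 3 classes. Sham saline replicate 3 is high for 12 genes that include Col1a1, Col1a2 and Col3a1, SNI desipramine replicates 2 and 3 are low for Col6a1, and sham tianeptine replicate 6 is high for Col8a1 and Col8a2.

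Among fibrillar collagens, the chains of types I and III were low in nearly every library and high in a few. Col3a1 had 1.32, 2.23, 1.64 and 1.296 CPM in SNI desipramine, a lowest, median and highest of 1.44, 1.82 and 3.06 in SNI tianeptine, and 2.68, 1.81, 1.29, 1.39 and 1.20 in SNI saline. It had 2.38, 2.001, 7.71 and 1.64 CPM in sham desipramine, 1.002, 1.49 and 3.42 in sham tianeptine, and 1.14, 2.44, 20.99, 1.89 and 1.39 in sham saline. Only sham desipramine replicate 3 and sham saline replicate 3 lay above 3.42 CPM, and all groups overlapped.

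Col1a1 had 5.79, 5.77, 4.99 and 3.81 CPM in SNI desipramine, a lowest, median and highest of 4.02, 5.36 and 7.37 in SNI tianeptine, and 6.18, 5.69, 3.81, 3.80 and 4.28 in SNI saline. It had 6.28, 6.31, 11.6 and 4.70 CPM in sham desipramine, 2.79, 4.93 and 8.43 in sham tianeptine, and 5.64, 7.14, 28.31, 6.97 and 4.38 in sham saline. The same 2 libraries as for Col3a1 were the highest, and the groups overlapped.

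Col1a2 had 7.03, 7.56, 6.81 and 8.74 CPM in SNI desipramine, a lowest, median and highest of 9.29, 12.5 and 15.7 in SNI tianeptine, and 11.54, 9.57, 9.34, 7.85 and 10.09 in SNI saline. It had 15.36, 12.84, 25.91 and 8.52 CPM in sham desipramine, 8.39, 10.99 and 19.95 in sham tianeptine, and 8.20, 11.11, 60.18, 11.77 and 8.24 in sham saline. The 3 lowest of all 30 libraries were from SNI desipramine, and the other library of that group lay above the lowest sham desipramine library.

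The sum of these 3 genes was 109.5 CPM in sham saline replicate 3, where the next library of that group had 20.7. The group mean was 36.0 ± 41.2 CPM (SD, n = 5) with that library and 17.6 ± 3.58 without it. Markers of mural cells, the pericytes and muscle cells of vessels, summed to 446 CPM in the same library, against 177 to 301 CPM in the other 29 libraries. That library was also the highest of the 30 for endothelial markers, at 364 CPM with 341 in the next, and for peripheral immune markers, at 108 CPM with 64.1 in the next. The part of these cell types in the collagen levels was not tested. Col3a1 shares 141 bases of exon with another gene on its strand, where reads could be counted for either.

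**Figure D3:**
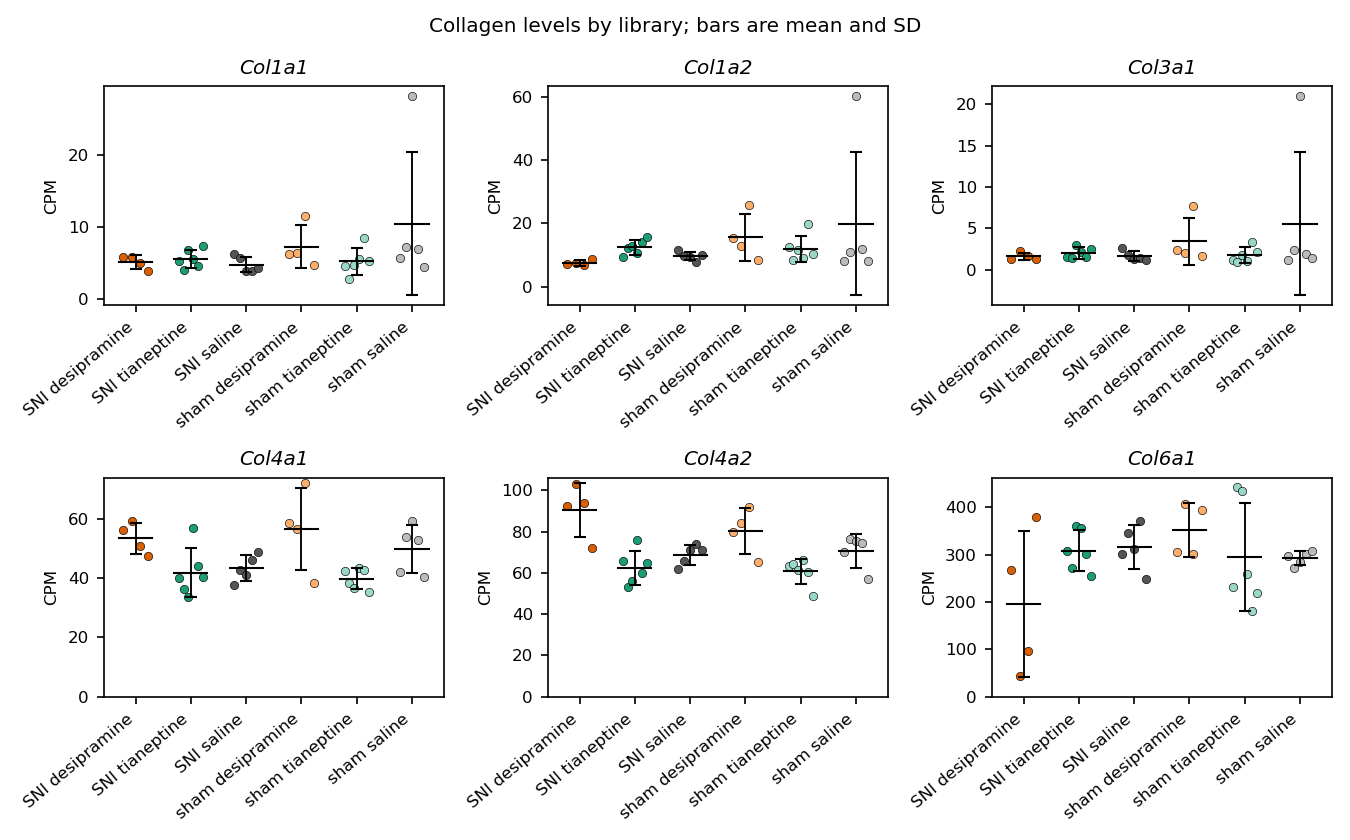
CPM of Col1a1, Col1a2, Col3a1, Col4a1, Col4a2 and Col6a1 by group, 1 point per library, with bars at the mean and SD (n = 4, 6, 5, 4, 6 and 5 from left to right). The wide bars of sham saline for Col1a1, Col1a2 and Col3a1 come with 1 library each, at 28.31, 60.18 and 20.99 CPM, and Col4a2 lies highest in SNI desipramine.

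The basement membrane chains Col4a1 and Col4a2 were steadier. Col4a2 had 92.6, 103.1, 94.0 and 72.2 CPM in SNI desipramine, a lowest, median and highest of 53.1, 62.4 and 75.8 in SNI tianeptine, and 62.0, 65.7, 71.2, 73.9 and 71.2 in SNI saline. It had 79.7, 84.1, 92.2 and 65.3 CPM in sham desipramine, 49.0, 62.5 and 66.4 in sham tianeptine, and 70.2, 76.3, 75.6, 74.4 and 56.9 in sham saline. In each desipramine group 3 of the 4 libraries lay above every library of the saline and tianeptine groups, and the other lay among them. Summed endothelial markers had medians of 270 CPM in SNI desipramine, 253 in SNI tianeptine, 232 in SNI saline, 294 in sham desipramine, 238 in sham tianeptine and 318 in sham saline, and their part in the Col4a2 level was not tested.

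Col4a1 had 56.1, 59.2, 50.8 and 47.5 CPM in SNI desipramine, a lowest, median and highest of 33.5, 40.1 and 56.9 in SNI tianeptine, and 37.8, 42.6, 40.9, 46.2 and 48.8 in SNI saline. It had 58.6, 56.6, 71.9 and 38.3 CPM in sham desipramine, 35.4, 40.4 and 43.3 in sham tianeptine, and 42.0, 53.9, 59.2, 52.8 and 40.5 in sham saline. All SNI desipramine libraries lay above all sham tianeptine libraries, and every other pair of groups overlapped. That pair differs in both drug and surgery and was not tested, and the share of all genes with such a gap was not counted.

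Among all 6 groups together, Col4a2 was the 1 collagen gene of 43 tested that differed (edgeR quasi-likelihood test, adjusted p = 0.0459), and 1.55% of all 23736 genes passed that test. With an unadjusted p under 0.05 were 14 of 43 collagen genes and 20.9% of all genes. The call on Col4a2 held with DESeq2 (adjusted p = 0.00167), which also called Col16a1 and Col24a1. It held with RLE scaling and with no library set term. It was lost with limma-voom (adjusted p = 0.0995) and without sham saline replicate 3 (adjusted p = 0.0537). Leaving out SNI desipramine replicates 2 and 3 (adjusted p = 0.502) lost it too. So did no abundance filter, the first library set alone and a replicate block. On leaving out 1 library at a time, the call was lost in most refits, with losses for every group. It held without SNI desipramine replicate 4, SNI tianeptine replicate 4 or 6, or SNI saline replicate 2 or 5. Leaving out sham tianeptine replicate 6 or sham saline replicate 5 also kept it.

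Averaged over both surgeries, desipramine against saline left Col4a2 at a log2 fold change of 0.27 ± 0.08 (SE, adjusted p = 0.222) and Col4a1 at 0.24 ± 0.11 (adjusted p = 0.365). Col12a1, a FACIT chain of dense connective tissue, was at -0.50 ± 0.14 (adjusted p = 0.201), and it had 7.39 to 10.1 CPM in SNI desipramine against 11.5 to 14.6 in SNI saline, a gap downward that 1.12% of all genes had. The sham values of Col12a1 were 9.08 to 9.99 CPM with desipramine and 9.80 to 24.7 with saline, of which 24.7 is sham saline replicate 3, and without that library Col12a1 was at -0.33 ± 0.10 over both surgeries. No collagen gene passed this comparison and 0.0295% of all genes did. Col4a2 was at 0.20 ± 0.09 without SNI desipramine replicates 2 and 3, and passed without SNI desipramine replicate 4 (0.31 ± 0.08, adjusted p = 0.0445).

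The comparison of SNI with sham on desipramine addresses the effect of the injury in treated mice. There, 4 of 43 collagen genes passed, 9.3%, where 11.3% of all genes passed. Col2a1, the cartilage collagen chain, and Col16a1, a FACIT chain, rose, and Col6a2, a collagen VI chain, and Col20a1, a FACIT chain, fell, where 7.22% of all genes rose and 4.08% fell. In 12 collagen genes the unadjusted p was under 0.05, 27.9% of them against 27.6% of all genes.

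Col2a1 had 4.55, 5.599, 4.74 and 3.15 CPM in SNI desipramine and 2.29, 2.59, 2.40 and 3.06 in sham desipramine, a log2 fold change of 0.81 ± 0.20 (SE, adjusted p = 0.0133). All 4 SNI libraries lay above all 4 sham libraries, by little in SNI replicate 4. Such a gap upward was present in 2 of 43 collagen genes, Col2a1 and Col11a1, and in 5.49% of all genes.

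Col16a1 had 37.5, 56.4, 46.7 and 26.2 CPM in SNI desipramine and 25.3, 34.3, 30.0 and 24.96 in sham desipramine (0.54 ± 0.18, adjusted p = 0.0476). The groups overlapped through SNI replicate 4. Col6a2 had 27.4, 9.83, 15.5 and 23.1 CPM in SNI desipramine and 25.6, 29.5, 33.1 and 34.2 in sham desipramine (-0.69 ± 0.23, adjusted p = 0.0466), with replicates 2 and 3 of SNI far below the others. Col20a1 had 12.9, 6.63, 9.95 and 14.4 CPM in SNI desipramine and 14.8, 19.6, 15.8 and 15.4 in sham desipramine (-0.58 ± 0.19, adjusted p = 0.0466). Every SNI value of Col20a1 was below every sham value, as for 4.47% of all genes. Col20a1 shares 79 bases of exon with another gene on its strand, and reads there could be counted for either.

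These calls moved with SNI desipramine replicates 2 and 3, the libraries with low medium spiny neuron markers. They also moved with libraries of other groups: without SNI tianeptine replicate 1, 3 or 5, Col2a1 alone passed. Leaving out SNI desipramine replicates 2 and 3 together kept replicates 1 and 4 of that group. Col2a1 was then at 0.56 ± 0.23, Col16a1 at 0.13 ± 0.19, Col6a2 at -0.30 ± 0.22 and Col20a1 at -0.28 ± 0.20, and 0 collagen genes and 0 genes in all passed. Without replicate 2 or 3 alone, too, 0 collagen genes passed, with Col2a1 at an adjusted p of 0.0932 without replicate 2 and 0.0505 without replicate 3. Without SNI desipramine replicate 4, 9 collagen genes passed, the same 4 with Col4a4, Col6a1, Col11a1, Col15a1 and Col25a1. That refit also raised the calls from 4 to 10 of 31 genes of collagen synthesis and crosslinking. They went from 1 to 4 of 11 breakdown genes and from 0 to 1 of 9 receptor genes, and stayed at 2 of 13 matrix-binding genes. The share of all genes that passed in that refit is not given here. The part of neighbouring tissue in these values was not tested.

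Col6a1, the most abundant collagen gene per length, split in the same way. It had 267, 43.2, 97.6 and 379 CPM in SNI desipramine and 305, 406, 301 and 394 in sham desipramine. Outside SNI desipramine it ran from 181 to 443 CPM, and replicates 2 and 3 of that group were the lowest of all 30 libraries. Its log2 fold change of -0.84 ± 0.37 did not pass (adjusted p = 0.133) and was -0.14 ± 0.23 without those 2 libraries. Col11a1, a fibrillar chain partner of Col11a2, had 126, 77.2, 79.8 and 85.6 CPM in SNI desipramine and 55.2, 74.4, 32.2 and 53.4 in sham desipramine. The groups did not overlap, and its 0.78 ± 0.27 had an adjusted p of 0.058 with edgeR, while it passed with DESeq2 and limma-voom.

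**Figure D4:**
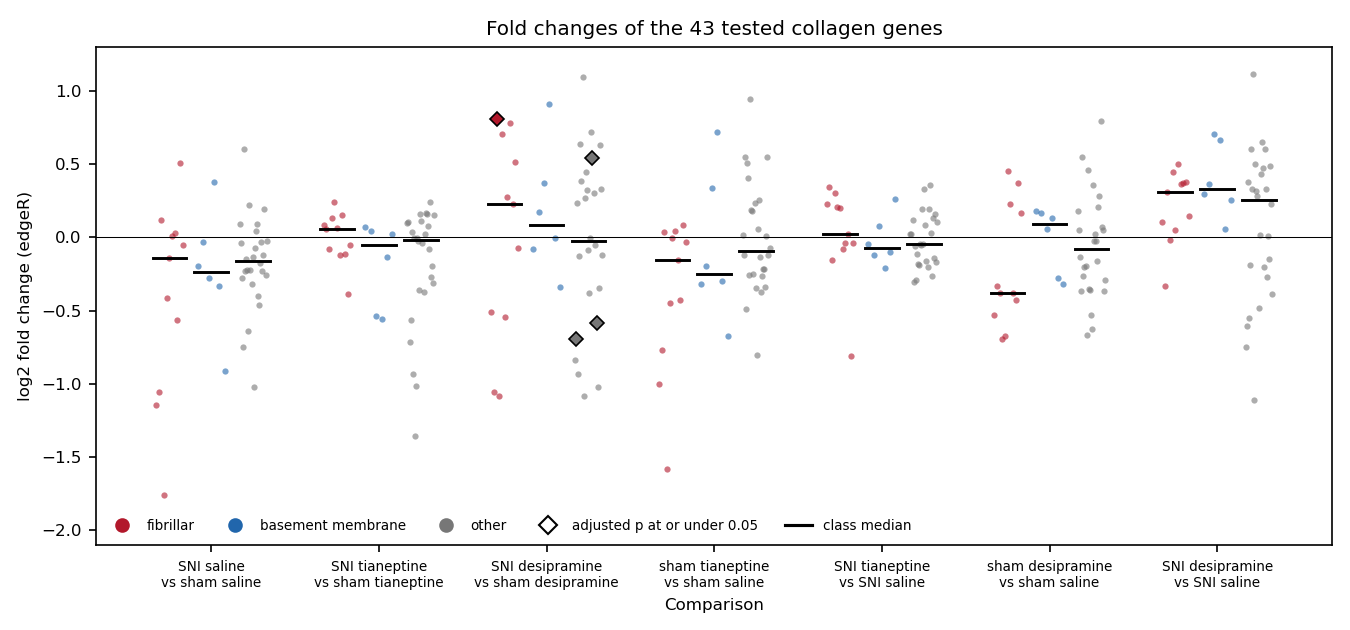
Log2 fold change (edgeR) of the 43 tested collagen genes in the 7 pairwise comparisons, 1 point per gene, coloured by class, with a bar at the class median; diamonds mark an adjusted p at or under 0.05. Diamonds appear in SNI against sham on desipramine alone, and the lowest points of SNI against sham on saline are Col3a1, Col1a1 and Col1a2.

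On saline, SNI against sham gave 0 collagen genes past the threshold, as 0% of all genes passed. At an unadjusted p under 0.05 were 6 of 43 collagen genes (14%), against 9.74% of all genes. All 6 were lower in SNI, as were 5.19% of all genes at that level. They were Col11a2 (-0.57 ± 0.17, adjusted p = 0.418), Col1a1 (-1.15 ± 0.38), Col3a1 (-1.76 ± 0.63), Col4a6 (-0.91 ± 0.34), each with adjusted p = 0.436, Col1a2 (-1.06 ± 0.41, adjusted p = 0.442) and the transmembrane collagen Col13a1 (-1.02 ± 0.43, adjusted p = 0.462). The median log2 fold change was -0.14 over the fibrillar chains, -0.24 over type IV and -0.16 over the other collagens, and 0.00 over all genes.

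Without sham saline replicate 3, Col1a1 was at -0.34 ± 0.26, Col1a2 at -0.02 ± 0.24, Col3a1 at -0.03 ± 0.42, Col4a6 at -0.27 ± 0.25 and Col13a1 at -0.32 ± 0.36. Col11a2, a chain of thin fibrils, stayed near its value without that library, at -0.61 ± 0.18. It had 38.1, 45.7, 30.9, 30.0 and 41.6 CPM in SNI saline and 52.4, 69.3, 48.4, 65.6 and 42.0 in sham saline, so that sham replicate 5 lay within the SNI range. Col4a1 was at -0.20 ± 0.14 and Col4a2 at -0.03 ± 0.10 in this comparison. Col24a1, a minor fibrillar chain of bone and cornea, was the 1 collagen gene with no overlap between groups, higher in SNI, as for 0.341% of all genes, and 0.404% of all genes had such a gap downward. It had 5.93, 6.02, 6.27, 6.40 and 9.14 CPM in SNI saline and 3.91, 4.48, 5.93, 4.66 and 4.64 in sham saline (0.51 ± 0.30, adjusted p = 0.595), a gap that is narrow and closes to the same rounded value at its edge.

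On tianeptine, SNI against sham gave 0 collagen genes past the threshold (0% of all genes) and 3 at an unadjusted p under 0.05, against 1.21% of all genes. Col6a6, a minor chain of collagen VI, had a lowest, median and highest of 0.452, 0.926 and 1.28 CPM in SNI tianeptine and 1.31, 1.41 and 3.51 in sham tianeptine, with no overlap (-0.93 ± 0.27, adjusted p = 1). Such a gap downward was found in 0.00843% of all genes and one upward in 0.0169%. For Col6a6 it was narrow, from 1.284 to 1.306 CPM. Without sham tianeptine replicate 3, which had the 3.51 CPM, Col6a6 was at -0.66. Col6a3 was at -0.71 ± 0.33 and at -0.02 ± 0.19 without sham tianeptine replicate 1, where it had 24.4 CPM against 3.44 to 8.93 in the other 29 libraries. Col4a4 was at -0.55 ± 0.26, and at -0.20 ± 0.24 without sham tianeptine replicate 6.

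In sham mice, tianeptine against saline gave 0 collagen genes past the threshold (0% of all genes) and 7 at an unadjusted p under 0.05, against 6.84% of all genes. Col1a1 at -1.004 ± 0.37, Col3a1 at -1.58 ± 0.62 and Col4a6 at -0.68 ± 0.33 moved with sham saline replicate 3, and were at -0.23 ± 0.26, 0.06 ± 0.41 and -0.06 ± 0.24 without it. Col4a1 was at -0.32 ± 0.13, and at -0.25 ± 0.14 without that library. Col11a2 was at -0.43 ± 0.17 and stayed between -0.53 and -0.34 on leaving out each library in turn. Col4a4 was at 0.72 ± 0.28, and at 0.41 ± 0.25 without sham tianeptine replicate 6. Col25a1, at 0.55 ± 0.20, was at 0.28 ± 0.15 without sham tianeptine replicate 1, where it had 190 CPM. Col8a1, not among the 7 at 0.95 ± 0.74, was at 0.07 ± 0.55 without sham tianeptine replicate 6, where it had 11.4 CPM and Col8a2 10.03 CPM.

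In SNI mice, tianeptine against saline gave 0 collagen genes past the threshold (0% of all genes) and 1 at an unadjusted p under 0.05, against 2.87% of all genes. That gene was Col24a1, with a lowest, median and highest of 2.55, 3.71 and 6.09 CPM in SNI tianeptine and 5.93, 6.02, 6.27, 6.40 and 9.14 CPM in SNI saline (-0.81 ± 0.29, adjusted p = 1). Only SNI tianeptine replicate 4 reached into the saline range. Over both surgeries, tianeptine against saline gave 3 collagen genes at that level against 4.74% of all genes, Col25a1 at 0.36 ± 0.14, Col4a2 at -0.16 ± 0.07 and Col20a1 at -0.24 ± 0.12, and none passed (0% of all genes). Without sham tianeptine replicate 1, Col25a1 was at 0.21 ± 0.11.

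In SNI mice, desipramine against saline gave 0 collagen genes past the threshold (0% of all genes) and 8 at an unadjusted p under 0.05, against 17.5% of all genes. All 6 type IV chains were higher on desipramine, with a median log2 fold change of 0.33 where that of all genes was 0.01. Without SNI desipramine replicates 2 and 3, Col4a5 was at -0.23 ± 0.34 and the other 5 were still higher. Col4a2 was at 0.37 ± 0.11 (adjusted p = 0.112), Col6a2 at -0.60 ± 0.22 (adjusted p = 0.161) and Col16a1 at 0.47 ± 0.17 (adjusted p = 0.158). Without SNI desipramine replicates 2 and 3 they were at 0.22 ± 0.14, -0.20 ± 0.21 and 0.07 ± 0.18, and Col6a1, at -0.75 ± 0.35 with all libraries, was at -0.04 ± 0.22. Of the other genes at that level, Col15a1 (0.65 ± 0.27), Col25a1 (0.49 ± 0.22) and Col4a4 (0.67 ± 0.31) were at 0.03 ± 0.31, 0.14 ± 0.26 and 0.15 ± 0.37 without the same pair, and Col12a1 (-0.48 ± 0.20) was at -0.44 ± 0.26. In sham mice, desipramine against saline gave 0 collagen genes past the threshold (0% of all genes) and 3 at an unadjusted p under 0.05, against 7.63% of all genes: Col11a2 at -0.43 ± 0.19, Col5a1, a regulator of fibril width, at -0.67 ± 0.32, and Col12a1 at -0.53 ± 0.20. Without sham saline replicate 3, Col5a1 was at -0.38 ± 0.31 and Col12a1 at -0.20 ± 0.14, while Col11a2 was at -0.47 ± 0.20. That refit also had Col1a2 at 0.73 ± 0.25 (adjusted p = 0.508) and Col3a1 at 1.07 ± 0.43 (adjusted p = 0.56), against -0.33 ± 0.43 and -0.69 ± 0.64 with it. The 3 comparisons with sham saline share those 5 libraries.

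The chains of types I and III and the main type IV chains had small or imprecise differences in the comparisons not yet given for them. For SNI against sham on tianeptine, Col1a1 was at 0.09 ± 0.34, Col1a2 at 0.06 ± 0.37, Col3a1 at 0.13 ± 0.57, Col4a1 at 0.07 ± 0.13 and Col4a2 at 0.04 ± 0.09 (adjusted p = 1 for each). For SNI against sham on desipramine, Col1a2 was at -1.06 ± 0.46 (adjusted p = 0.137), Col1a1 at -0.51 ± 0.43, Col3a1 at -1.08 ± 0.71, Col4a1 at -0.08 ± 0.16 and Col4a2 at 0.17 ± 0.12. Fibroblast and meninges markers summed to 65.5 to 79.4 CPM in SNI desipramine and 65.0 to 223 CPM in sham desipramine, and their part in the Col1a2 value was not tested. In each comparison where edgeR called 0 collagen genes, DESeq2 and limma-voom also called 0, while DESeq2 called 1 to 555 of all genes in the 6 pairwise ones.

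Whether a drug acted differently after SNI than after sham was tested as an interaction, and 0 collagen genes passed for tianeptine or for desipramine (0% of all genes in each). At an unadjusted p under 0.05 were 4 of 43 for tianeptine, against 4.2% of all genes, and 8 for desipramine, against 12.3%. The largest of these, Col3a1 for tianeptine, was 1.89 ± 0.85 (adjusted p = 0.989), and 0.20 ± 0.54 without sham saline replicate 3. For desipramine, Col11a2 was at 0.80 ± 0.26 (adjusted p = 0.27) and Col2a1 at 0.69 ± 0.26 (adjusted p = 0.318), and without SNI desipramine replicates 2 and 3 they were at 0.76 ± 0.30 and 0.44 ± 0.28.

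As whole classes, the summed levels overlapped between most groups. Fibrillar chains summed to 212 ± 31.7 CPM in SNI desipramine (n = 4), 165 ± 29.8 in SNI tianeptine (n = 6), 167 ± 12.1 in SNI saline (n = 5), 169 ± 30.2 in sham desipramine (n = 4), 162 ± 20.7 in sham tianeptine (n = 6) and 207 ± 62.6 in sham saline (n = 5), each ± SD. Without sham saline replicate 3, the last of these was 181 ± 30.5 CPM. All 4 SNI desipramine libraries (189 to 258 CPM) lay above all 5 SNI saline libraries (153 to 183 CPM), and overlapped the other groups. Taken singly, 0 of 43 collagen genes had such a gap upward. Col11a1 and Col11a2 weigh heavily in the sum, at 126 and 53.9 of the 258 CPM in SNI desipramine replicate 1. How often sums over other genes part in this way was not counted. Type IV chains summed to 153 ± 20.3 CPM in SNI desipramine, 112 ± 16.7 in SNI tianeptine, 120 ± 7.98 in SNI saline, 145 ± 27.0 in sham desipramine, 110 ± 7.14 in sham tianeptine and 131 ± 18.97 in sham saline. The means of both desipramine groups were the highest, and their libraries overlapped those of sham saline, which reached 156 CPM.

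The other collagens summed to 534 ± 108 CPM in SNI desipramine, 598 ± 52.4 in SNI tianeptine, 606 ± 39.7 in SNI saline, 648 ± 54.1 in sham desipramine, 620 ± 124 in sham tianeptine and 600 ± 34.2 in sham saline. Col6a1 made up much of each of these sums. Without it, they summed to 337 ± 49.8 CPM in SNI desipramine, 290 ± 21.01 in SNI tianeptine, 290 ± 18.5 in SNI saline, 296 ± 24.5 in sham desipramine, 325 ± 68.3 in sham tianeptine and 307 ± 31.7 in sham saline. The sham tianeptine mean was 298 ± 18.7 CPM without its highest library, replicate 1.

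**Figure D5:**
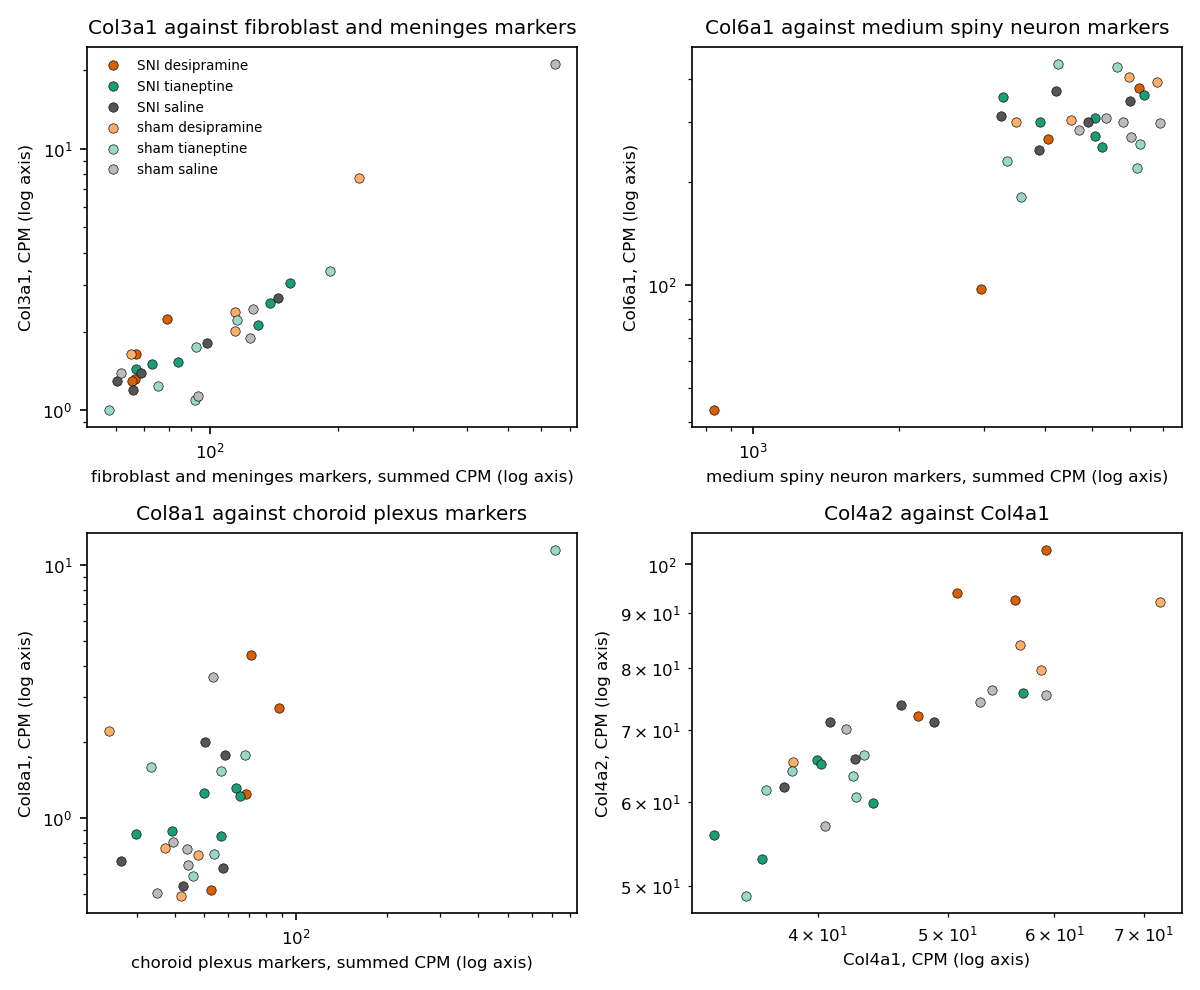
Scatter plots on log axes, 1 point per library (n = 30) coloured by group: Col3a1 against summed fibroblast and meninges markers, Col6a1 against medium spiny neuron markers, Col8a1 against choroid plexus markers, and Col4a2 against Col4a1, all in CPM. In the first 3, the extreme points are sham saline replicate 3 (20.99 CPM Col3a1), SNI desipramine replicates 2 and 3 (43.2 and 97.6 CPM Col6a1) and sham tianeptine replicate 6 (11.4 CPM Col8a1), while Col4a1 and Col4a2 spread along 1 line (r = 0.85).

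The genes that make, bind and remove collagen had calls in SNI against sham on desipramine. Of 31 genes of collagen synthesis and crosslinking 4 passed, 12.9%, where 11.3% of all genes did, and 2 rose and 2 fell: P4ha3, a prolyl hydroxylase subunit (1.04 ± 0.31, adjusted p = 0.0329), Plod1, a lysyl hydroxylase (0.35 ± 0.12, adjusted p = 0.046), Pxdn, which crosslinks type IV collagen (-0.60 ± 0.15, adjusted p = 0.0143), and P4ha1, another prolyl hydroxylase subunit (-0.35 ± 0.11, adjusted p = 0.0422). Pxdn averaged 65.8 ± 17.2 CPM in SNI desipramine and 99.3 ± 5.64 in sham desipramine (SD, n = 4 each). Of 11 tested genes of collagen breakdown, Mmp15, a membrane-bound protease, rose (1.17 ± 0.24, adjusted p = 0.00725). Of 13 matrix proteins that bind collagen, Sparc (1.72 ± 0.38, adjusted p = 0.00861) and Sparcl1 (0.56 ± 0.12, adjusted p = 0.00725), both counter-adhesive proteins of glia and vessels, rose, while the median of that list was -0.53 with 9 of 13 lower.

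Sparc averaged 580 ± 319 CPM in SNI desipramine and 176 ± 20.2 in sham desipramine, a wide spread in the first group. Of 9 tested collagen receptor genes, 0 passed there. Without SNI desipramine replicates 2 and 3, 0 genes of these lists passed, and Pxdn was at -0.38 ± 0.17, Mmp15 at 0.69 ± 0.25 and Sparc at 0.92 ± 0.40. Mmp15 (adjusted p = 0.0419) and Sparc (adjusted p = 0.0468) also passed the edgeR test of any difference among the 6 groups, as 1.55% of all genes did. In the 6 other pairwise comparisons, none of these 4 lists had a gene past the threshold, as no gene at all passed there. On saline, SNI against sham had a median log2 fold change of -0.40 over 9 tested collagen receptors, and 8 of 9 were lower, with 0.00 over all genes. Over the 13 matrix-binding genes it was -0.67, with 10 lower, and Lum, Dcn, Ogn and Fmod among them are also on the fibroblast list and had their highest values in the sham saline group. Without sham saline replicate 3, the median was -0.20 over the receptors, with 7 of 9 lower, and -0.03 over the matrix-binding genes, with 8 of 13 lower.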

How the data were processed

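Bulk polyA RNA of bilateral nucleus accumbens punches was sequenced from 30 mice with a stranded mRNA kit, per the labels' protocols. Trim Galore, HISAT2, SAMtools, featureCounts and the build mm10 are named in the submitters' processing notes. No source used here gives their versions, the annotation or the strand setting. The authors deposited raw read counts per gene and FPKM values. The deposited FPKM of all 44 collagen genes follows the whole gene span, not the exons (within 1.0%), so levels here were computed from the counts.

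Gene IDs were matched to GENCODE symbols, 54349 exactly and 792 without their version. The 260 unmatched IDs held 0.0509% of counts. CPM used TMM-scaled library totals. CPM per kb used the length of all annotated exons of a gene, with overlaps merged. The 23736 genes that passed edgeR's filterByExpr were fitted with edgeR 4.0.16 (R 4.3.3) by its robust quasi-likelihood test, with 1 coefficient per group and a term for the library set (replicates 1 to 4 or 5 and 6). P-values were adjusted over all these genes by Benjamini-Hochberg with a threshold of 0.05. The SE of an edgeR log2 fold change was derived from the test, as its absolute value divided by the square root of the F statistic. DESeq2 1.42.0 and limma 3.58.1 (voom), RLE scaling, no abundance filter, no set term, the first set alone, a replicate block and leaving out libraries were alternatives. The fit was tested on simulated data. Each library is 1 animal. No 2 libraries of the same group agreed within counting noise, and pairs from different groups were not compared. Depth was 24.5 to 120.7 M counts.

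Every collagen gene could be named. Full statistics were kept for the genes of smallest p in each class and comparison, all genes that passed, and Col1a1, Col1a2, Col3a1, Col4a1 and Col4a2 throughout. The collagen genes, the classes and the pathway and marker lists were chosen with earlier results of these data known. Of the lists, genes shared by 2 lists count in both. Refits of these lists without single libraries were added after seeing the data.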

Additional observations from a re-analysis of the deposited data

Results flagged for a closer look

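In each group of 4 to 6 libraries, the highest and lowest library was set against the group's range, for Col1a1, Col1a2, Col3a1, Col4a1 and Col4a2. Chance flags about 1 in 20 groups if the values follow a normal distribution, which was not checked for CPM. Sham saline replicate 3 stood far above the other 4 libraries of its group for Col1a1 (28.31 CPM), Col1a2 (60.18 CPM) and Col3a1 (20.99 CPM). Sham desipramine replicate 3 stood above the rest of its group for Col3a1 at 7.709 CPM, and its fibroblast and meninges markers, at 223 CPM, were the highest of that group. Sham tianeptine replicate 5 stood above its group for Col1a2 at 19.95 CPM, with the highest such marker sum of that group, 192 CPM. Sham tianeptine replicate 6 was set apart below its group for Col4a2 at 48.95 CPM, in the library with the highest choroid plexus markers. The part of these cell types was not tested. Over all 44 collagen genes and 6 groups, 37 of 264 sets had such a library, of which 11 were sham saline replicate 3. The share of such sets over all genes was not computed, so 37 of 264 cannot be called an excess.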

How the results depend on the processing

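For SNI against sham on desipramine, 4 collagen genes passed, against 1 with no abundance filter, 1 with no library set term, 2 in the first library set alone and 0 without SNI desipramine replicates 2 and 3, and leaving out 1 library gave 0 to 9, over 1.5 times away from 4 in 22 of 30 refits. Col2a1 passed in every such refit but those without SNI desipramine replicate 2 or 3. For any difference among the 6 groups, 1 passed, against 3 with DESeq2 and 0 with limma-voom, no filter, the first set alone, or without either pair of libraries (sham saline replicates 2 and 3, or SNI desipramine replicates 2 and 3), with 0 to 7 on leaving out 1 library, different from 1 in 24 of 30 refits. Without SNI desipramine replicate 4, 5 collagen genes passed for desipramine against saline in SNI mice (0 to 5 over the refits) and 1 averaged over surgeries (0 to 1). The share of all genes that passed in the refits without 1 library is not given here, so these counts are not a result particular to collagens. The causes were not tested.

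Class medians moved with the same libraries. Without SNI desipramine replicates 2 and 3, the fibrillar median was -0.058 for SNI against sham on desipramine and 0.064 for desipramine against saline in SNI mice (0.116 to 0.385 leaving out 1 library), and the median of other collagens there was -0.008 (0.13 to 0.307). The fibrillar median of desipramine against saline in sham mice was 0.121 with limma-voom and 0.339 without sham saline replicates 2 and 3 (-0.45 to 0.297 leaving out 1). That of other collagens for SNI against sham on saline was -0.235 to 0.057 leaving out 1. Without sham saline replicates 2 and 3, direction turned for Col3a1 (0.208), Col4a5 (0.116; -0.441 to 0.142 leaving out 1) and Col18a1 (0.081; -0.617 to 0.054) in that comparison, for Col3a1 (0.28; -2.037 to 0.058) and Col13a1 (0.06) in sham tianeptine against saline, and for Col4a5 (0.191; -0.448 to 0.217) in sham desipramine against saline. Col4a3 turned to 0.081 in the first set alone (-0.69 to 0.085) for SNI against sham on tianeptine.

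The replicate numbers did not pair the libraries: same-numbered libraries had correlations of -0.63 to 0.41 (median -0.01), and 3 of 24 were closest to their own number. With the replicate block, 2 collagen genes passed for SNI against sham on desipramine and 0 for any difference. Col10a1, at 108 counts in all, was too shallow to test.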
